A study of Mus musculus with 22 samples.

Results

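Among 22 squamous carcinomas raised in the mouse mouth as a model of head and neck cancer, 7 tumours held little transcript of Krt14, which encodes keratin 14, the type I keratin of basal squamous epithelium. Tumours were called Krt14-low when Krt14 was under 3000 counts per 1000000 counts of the library (CPM) and Krt14-high otherwise, whatever their genotype or treatment, which gave 7 low and 15 high tumours. The members were thus chosen by the measured level of 1 gene. Because the rule read the same libraries, differences between low and high tumours are given as a description with no test.

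All tumours arose in mice carrying Krt5CreER-T2/+, a tamoxifen-inducible Cre recombinase driven by the Krt5 promoter, which is active in basal keratinocytes. They shared 2 further alleles with that driver, floxed Trp53 (Trp53fl/fl) and a Cre-activated mutant PIK3CA kinase at both copies of the Rosa26 locus, Rosa26LSL-PIK3CA(H1047R) on each chromosome. Tumours labelled Keap1-deleted here also carried Keap1fl/fl, and the others are called Keap1-wildtype. 4-hydroxytamoxifen was injected in the cheek lining to start tumours, alone (untreated here) or with benzo[a]pyrene (BAP), a tobacco carcinogen. Bulk samples also hold stromal cells, in which the Krt5 promoter is not active. The labels call every tumour a squamous carcinoma and give no histology. They state neither age nor sex, nor if separate animals gave the tumours. The p-values therefore measure the spread between these tumour samples, some of which may come from the same animal.

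Keratins 5 and 14 form the filaments of basal keratinocytes, and p63, encoded by Trp63, holds these cells in the squamous lineage. Squamous carcinomas usually keep part of this programme, with desmosomes, cornified envelope proteins and E-cadherin. In spindle cell carcinoma and in epithelial-mesenchymal transition, epithelial junction genes are reduced and vimentin, collagens and transcription factors of the SNAIL, TWIST and ZEB families are raised; fibroblasts and other stromal cells express many of the same mesenchymal genes.

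The low tumours were 5 of 5 Keap1-deleted BAP, 1 of 5 Keap1-deleted untreated, 1 of 6 Keap1-wildtype untreated and 0 of 6 Keap1-wildtype BAP tumours. Among Keap1-deleted tumours, BAP and the low state can therefore hardly be told apart, since 1 low tumour of that genotype was untreated and no high one was treated. Krt14 on chromosome 11 (100203162 to 100207548, minus strand, GRCm38) was at 16.6 CPM in the lowest low tumour, at a median of 932 CPM and at 1651 CPM in the highest. In the high tumours the lowest level was 3428 CPM, the median 25322 CPM and the highest 39377 CPM. The member nearest the threshold was Keap1-deleted untreated 3 at 1651 CPM, and the tumour just outside it was Keap1-deleted untreated 4 at 3428 CPM. In bulk RNA, fewer keratinocytes and less Krt14 RNA per keratinocyte cannot be told apart.

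**Figure D1:**
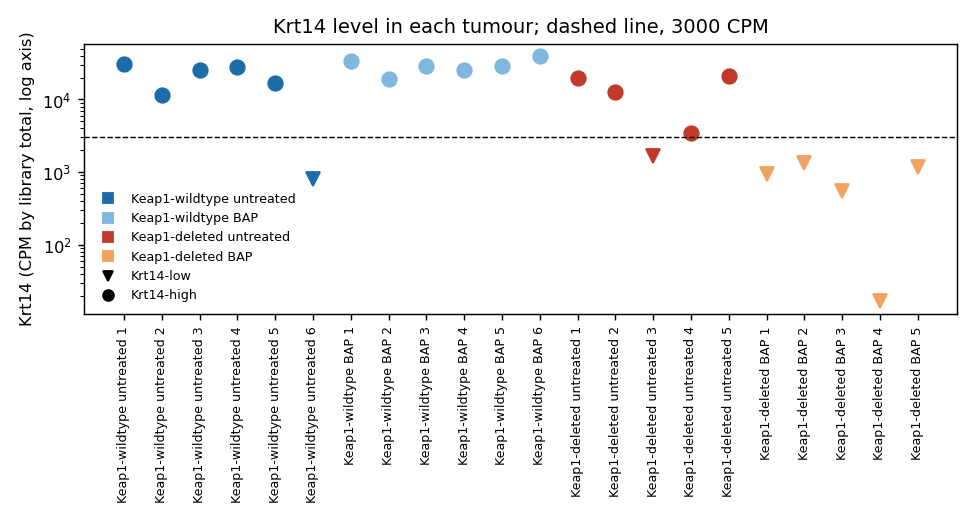
Krt14 in each of the 22 tumours, in CPM by library total on a log axis, with the dashed line at 3000 CPM. Triangles are the 7 low tumours and circles the 15 high ones, coloured by genotype and treatment; the 5 Keap1-deleted BAP tumours lie below the line and Keap1-deleted untreated 4 lies just above it.

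Total counts ranged from 29235010 to 39784402 in low and from 29602879 to 39862777 in high tumours. Sample titles that end in R, a suffix the labels do not explain, belonged to 2 low and 6 high tumours. From here on CPM are scaled with TMM (trimmed mean of M values); the TMM factors were 1.06 to 1.28 in low and 0.780 to 1.16 in high tumours. Keap1, the deleted gene, was at 9.44 to 36.4 CPM in 5 of the 6 low tumours labelled Keap1-deleted and at 65.5 CPM in the library labelled Keap1-deleted BAP 2, against 45.7 to 64.5 CPM in the 11 high wildtype tumours and 78.9 CPM in the low wildtype tumour. The label of that library is therefore not borne out by its Keap1 level. The NRF2 target list described below did go with the label. Its mean log2 CPM was 7.73 in that library and 6.54 to 7.44 in the Keap1-wildtype libraries. The other low tumours labelled Keap1-deleted ranged from 6.54 to 8.23.

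Many genes differed between the states. A gene was called separated when every low tumour lay above, or every low tumour lay below, every high tumour. Of 19202 genes tested, 149 (0.776%) were higher in this sense and 618 (3.22%) were lower in the low tumours. With library totals as the only scaling these counts became 302 and 467, so that the share of separated genes that were higher moved from 19.4% to 39.3%, and the median difference over all genes moved from -0.01 to 0.30 on the log2 scale. By size rather than overlap, 1995 genes had a median at least 4-fold higher and 1663 a median at least 4-fold lower in the low tumours. Leaving out Keap1-deleted untreated 4, the high tumour nearest the threshold, raised the separated genes to 714 higher and 1156 lower. It was the high tumour closest to the low range for 90 of the 149 higher and 483 of the 618 lower genes.

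Along the first principal component of log2 CPM, which held 45.9% of the variance, the low tumours lay between 125 and 189 and the high tumours between -141 and 116. Keap1-deleted untreated 4 was the high tumour at 116, followed by Keap1-deleted untreated 2 at 42.0. Each tumour was also placed on a scale on which 0 is the median of high and 1 the median of low tumours, over the 3658 genes with medians at least 4-fold apart. On this scale Keap1-deleted untreated 4 lay at 0.82, Keap1-deleted untreated 2 at 0.47 and Keap1-wildtype untreated 5 at 0.26. The high group thus held tumours at several points between its own median and the low tumours.

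**Figure D2:**
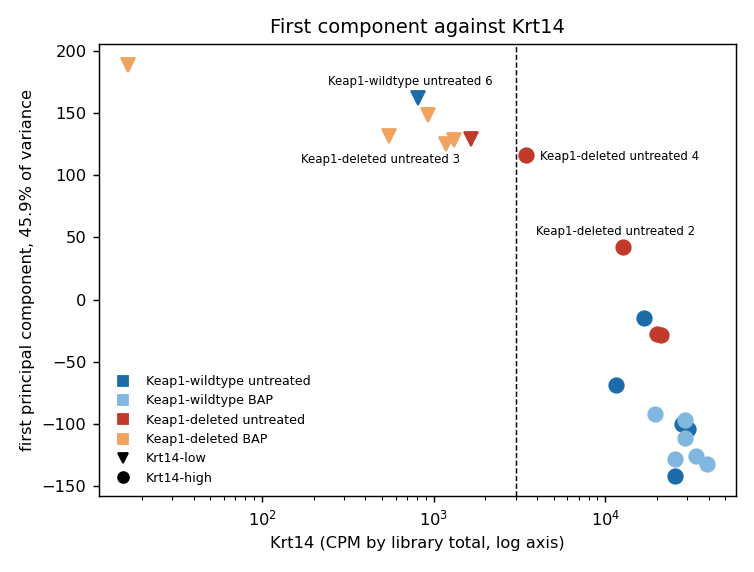
First principal component of log2 CPM (vertical axis, arbitrary units) against Krt14 (CPM by library total, log axis) in 22 tumours. The 7 low tumours (triangles) lie at 125 or more, Keap1-deleted untreated 4 sits beside them at 116 although its Krt14 exceeds 3000 CPM (dashed line), and the other high tumours lie at 42.0 or below.

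Transcription factors of the squamous lineage were lower in the low tumours as a group. Of 16 listed, 12 were separated, none in the other direction, and the median difference was -4.43 on the log2 scale against -0.01 over all genes; with library totals as scaling 9 were separated. Trp63, the lineage regulator itself, was at 3.86, 20.1 and 39.4 CPM (lowest, median and highest) in low and at 54.2, 345 and 855 CPM in high tumours. The highest low tumour for Trp63 was Keap1-deleted untreated 3 and the lowest high one Keap1-deleted untreated 4, so the ranges came close without meeting. Elf3, an ETS factor of epithelial differentiation, ranged from 0 to 0.603 CPM in low and from 2.81 to 81.9 CPM in high tumours. Grhl3, a Grainyhead factor of the epidermal barrier, ranged from 0.241 to 7.17 CPM against 15.8 to 233 CPM. Ovol1, a repressor of mesenchymal genes in epithelia, ranged from 0 to 7.98 CPM against 12.8 to 197 CPM, and Zfp750, a regulator of terminal differentiation, from 0.268 to 10.96 CPM against 22.1 to 318 CPM. Elf3, Grhl3, Ovol1 and Zfp750 thus lay lower in every low tumour. Sox2, Tfap2a, Grhl2 and Ovol2 had lower medians too, but overlapped between the states.

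Keratinocyte structural genes followed the same pattern, most of all the cornified layer. Of 14 basal keratinocyte genes 6 were separated, all lower, with a median difference of -3.85. Krt14 is on this list and among these 6, and was separated by the rule that set the groups. Krt5, the partner of keratin 14, was at 1.80, 222 and 358 CPM in low and at 562, 4922 and 10070 CPM in high tumours. Krt17, a keratin of injured and tumour epithelium, ranged from 2.79 to 431 CPM against 809 to 13432 CPM, and Lamb3, a chain of laminin-332, from 0.456 to 20.3 CPM against 30.5 to 282 CPM. Without Keap1-deleted untreated 4, 11 of these 14 genes were separated, again with Krt14 among them.

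Of 19 suprabasal and cornified genes 12 were separated, all lower, with a median difference of -6.34. Tgm3, an envelope-crosslinking transglutaminase, was at 0, 13.3 and 46.5 CPM in low and at 196, 1523 and 3287 CPM in high tumours. Rptn, an envelope protein of the S100-fused family, ranged from 0.188 to 124 CPM against 161 to 3851 CPM. Krt1 and Krt10, the suprabasal pair, overlapped by a narrow margin, with the highest low levels at 1310 and 1306 CPM and the lowest high levels at 997 and 1085 CPM. Stress keratins and alarmins, genes of injured epithelium, gave 6 of 12 separated, all lower; Krt6a ranged from 1.61 to 363 CPM against 1588 to 15099 CPM.

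By the naming rule, the 10 largest separated losses were Spink7, a protease inhibitor of stratified mucosa, the phospholipase gene Pla2g4d and 8 genes of the Sprr2 and Lce3 families, small envelope precursors. Spink7 was listed at 0 in 5 low tumours and at up to 2.75 CPM in the others, against 3.47, 34.997 and 119 CPM in the high tumours, and overlapped narrowly with library totals as scaling. Pla2g4d was at 0, 0.392 and 2.89 CPM in low and at 5.18, 78.7 and 154 CPM in high tumours. All 6 Lce3 genes and 9 of 14 Sprr genes tested were separated, against 3.22% of all genes lower. Of 14 Lce1 genes, another envelope family, 0 were separated. Their median difference was -7.17, against -7.11 for Lce3 and -7.24 for Sprr. Members of the Lce3 and Sprr families are near-identical copies whose reads can be split between them, so the value of any single one is uncertain.

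Cell-cell adhesion and epithelial splicing genes were lower too. Of 22 listed, 14 were separated, all lower, with a median difference of -4.44, and 18 were separated without Keap1-deleted untreated 4. Cdh1, which encodes E-cadherin, was at 0.724, 21.997 and 39.0 CPM in low and at 61.1, 417 and 636 CPM in high tumours. Rab25, an epithelial trafficking GTPase, was at 0.348, 6.92 and 24.4 CPM against 51.3, 409 and 634 CPM. The desmosome genes Pkp1, Dsp and Dsc2, for plakophilin, desmoplakin and desmocollin, had median differences of -5.43, -5.17 and -5.13. The splicing regulators Esrp1 and Esrp2, which set epithelial isoforms, had median differences of -4.48 and -4.40 and did not overlap. Simple epithelial keratins shared this less: of 5 genes none was separated, 1 (Krt8) had a higher median, and the median difference was -0.41. Krt23 was at 0 to 4.29 CPM in low against 3.32 to 25.7 CPM in high tumours. Krt8 reached 133 CPM in Keap1-wildtype untreated 6 and 47.4 CPM in Keap1-deleted BAP 1, and stayed at 4.59 CPM or less in the other 5 low tumours against 0.0382 to 12.7 CPM in high tumours.

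**Figure D3:**
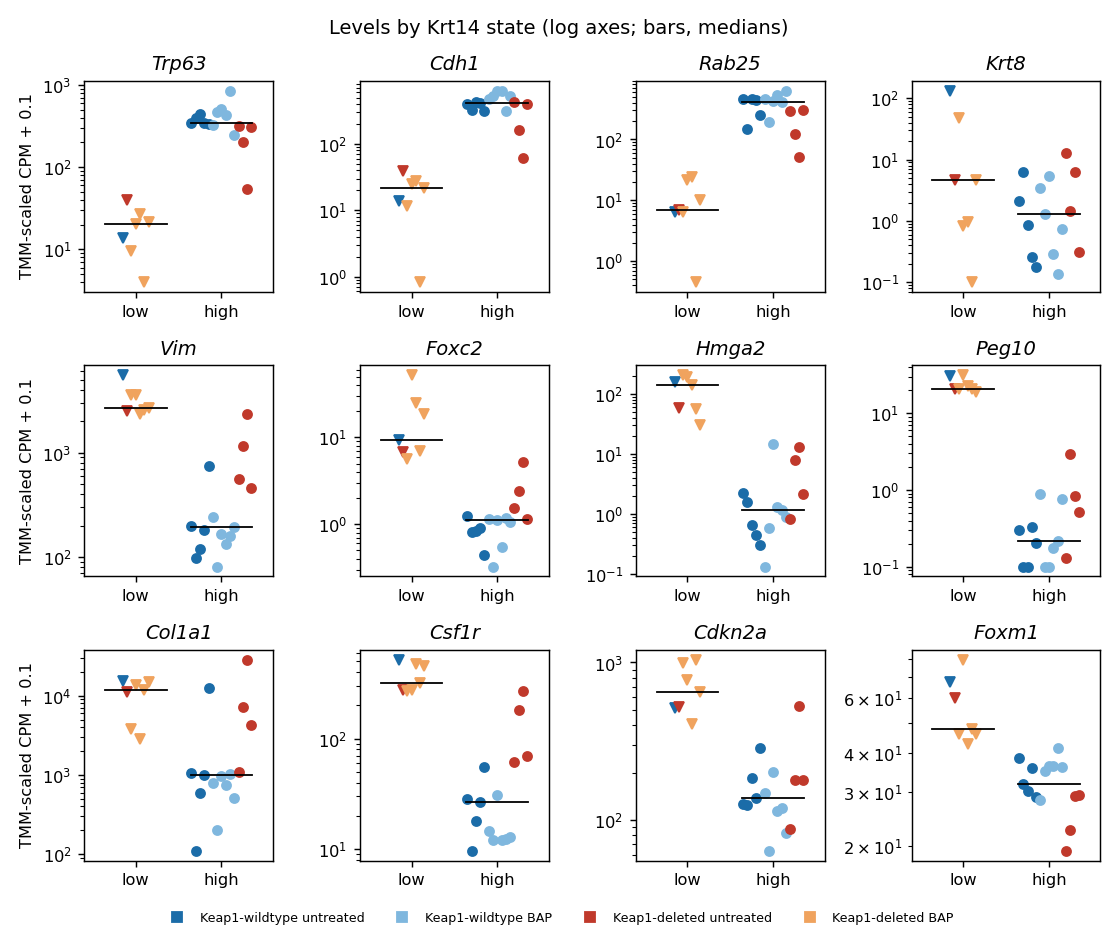
Levels of 12 genes in each tumour by Krt14 state, as TMM-scaled CPM plus 0.1 on log axes; bars are medians of 7 low and 15 high tumours. Trp63, Cdh1 and Rab25 lie lower and Vim, Foxc2, Hmga2, Peg10, Csf1r and Foxm1 higher in every low tumour, whereas Krt8, Col1a1 and Cdkn2a overlap between the states.

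Promoters of the lower genes are shown because SNAIL and ZEB proteins, known repressors of epithelial genes, bind the E-box CAGGTG. The 250 bases before the start, from the RefSeq promoter table on GRCm38.p6, were searched on both strands for CAGGTG, for the AP-1 type sequence TGANTCA and for the Grainyhead type sequence AACCNGTT; 433 of the 618 lower genes, 107 of the 149 higher genes and 12866 genes tested had an entry that was used. Some genes without such an entry lie on 1 chromosome that was left out of the search. CAGGTG was present in 28.9% of lower, 11.2% of higher and 15.9% of all promoters. TGANTCA was present in 11.3%, 6.54% and 5.25%, and AACCNGTT in 1.85%, 4.67% and 1.64%. Sites of 2 of these motifs overlapped in 19 promoters. A match describes letters only and shows no binding. Below are the promoters of Rab25 (chr3:88548280-88548529, minus strand), of the polarity gene Crb3 (chr17:57061951-57062200, plus strand) and of the tight junction gene Cldn4 (chr5:134946935-134947184, minus strand), each 5′ to 3′ on the gene's strand, with CAGGTG or its reverse complement CACCTG in capitals.
Rab25: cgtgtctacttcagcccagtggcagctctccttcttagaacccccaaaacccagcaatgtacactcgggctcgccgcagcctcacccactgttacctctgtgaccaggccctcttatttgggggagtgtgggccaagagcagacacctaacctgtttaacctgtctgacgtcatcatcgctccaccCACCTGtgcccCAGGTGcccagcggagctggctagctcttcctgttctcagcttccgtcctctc
Crb3: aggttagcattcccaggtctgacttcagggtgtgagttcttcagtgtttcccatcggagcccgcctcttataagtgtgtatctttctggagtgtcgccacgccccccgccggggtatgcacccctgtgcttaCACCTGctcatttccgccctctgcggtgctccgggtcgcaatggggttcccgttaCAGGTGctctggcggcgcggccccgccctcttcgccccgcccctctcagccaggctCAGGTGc
Cldn4: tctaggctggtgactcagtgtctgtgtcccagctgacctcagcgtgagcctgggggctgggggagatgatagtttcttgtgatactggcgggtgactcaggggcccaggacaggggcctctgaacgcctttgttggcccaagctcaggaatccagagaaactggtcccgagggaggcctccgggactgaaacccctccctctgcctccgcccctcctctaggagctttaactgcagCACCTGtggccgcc
Rab25 held 2 such sites, Crb3 3 and Cldn4 1. All 3 genes were separated: Crb3 ranged from 0.107 to 3.22 CPM in low and from 3.92 to 72.5 CPM in high tumours, and Cldn4 from 0.214 to 10.2 CPM against 27.1 to 193 CPM. These 3 were chosen after their levels and sequences had been seen.

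Of the transcription factors tied to epithelial-mesenchymal transition, most had higher medians in the low tumours but few were separated. Among 9, 7 had a higher median, 1 was separated upward and 1 downward, and the median difference was 3.47. Foxc2, a forkhead factor of mesenchyme, was at 5.58, 9.24 and 52.3 CPM in low and at 0.223, 1.01 and 5.06 CPM in high tumours. Snai2, which encodes SLUG and is also expressed in basal keratinocytes, went the other way, at 8.57, 14.2 and 23.8 CPM in low against 31.4, 51.0 and 100 CPM in high tumours. Snai1 was at 48.1, 89.1 and 129 CPM against 0.146, 3.09 and 76.0 CPM, with Keap1-deleted untreated 4 the high tumour inside the low range. Without that tumour 5 of the 9 were separated upward.

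Mesenchymal structure and matrix genes were higher at the median in the low tumours, with wide overlap. Of 15 mesenchymal structure and adhesion genes 2 were separated, Vim and Itga5, and all 15 had a higher median. Vim, the intermediate filament vimentin, was at 2354, 2676 and 5518 CPM in low and at 80.5, 195 and 2320 CPM in high tumours. Itga5, a fibronectin receptor subunit, ranged from 319 to 701 CPM against 42.3 to 304 CPM. Both upper ends of the high range were close to the low range, that of Vim in Keap1-deleted untreated 4.

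None of 20 fibroblast and collagen genes was separated, although all 20 had a higher median, with a median difference of 3.48. Lox, which crosslinks collagen, was at 409, 731 and 1990 CPM in low and at 6.05, 13.2 and 1328 CPM in high tumours, and Dcn, the proteoglycan decorin, at 464, 893 and 2151 CPM against 4.63, 19.4 and 781 CPM. Col1a1, the main chain of type I collagen, was at 2868, 11993 and 15478 CPM against 109, 1005 and 28703 CPM. Its highest level of all 22 tumours was thus in a high tumour, Keap1-deleted untreated 4, and Keap1-wildtype untreated 5 held 12670 CPM. Without Keap1-deleted untreated 4, 3 of the 20 genes were separated. Summed over the list, low tumours held 17595 to 54690 CPM and high tumours 832 to 94133 CPM.

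No collagen gene could be among the largest separated gains, because none of the 42 collagen genes tested was separated. By the naming rule the 10 largest separated gains were Glp1r, Mum1l1, F13a1, Hmga2, Peg10, Siglec1, Etv1, Phex, Folr2 and Efemp1. Hmga2, an architectural chromatin protein of embryonic tissue and tumours, was at 30.1, 142 and 207 CPM in low and at 0.0323, 1.07 and 14.4 CPM in high tumours. Hmga2 and Col1a1 ranked the tumours differently. The collagen-rich high tumours Keap1-deleted untreated 4 and Keap1-wildtype untreated 5 held 13.2 and 0.21 CPM of Hmga2. Keap1-deleted BAP 3, with the lowest Col1a1 among low tumours, held 142 CPM. Hmga2 was named because it was separated and Col1a1 was not, so this difference follows from the choice of genes. Glp1r, the receptor of an incretin hormone, was at 5.31, 33.9 and 125 CPM against 0, 0 and 3.62 CPM. Etv1, an ETS transcription factor, was at 18.3, 57.2 and 76.3 CPM against 0, 0.737 and 14.2 CPM. Efemp1, a fibulin of the extracellular matrix, was at 112, 152 and 359 CPM against 0.233, 2.51 and 58.3 CPM.

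**Figure D4:**
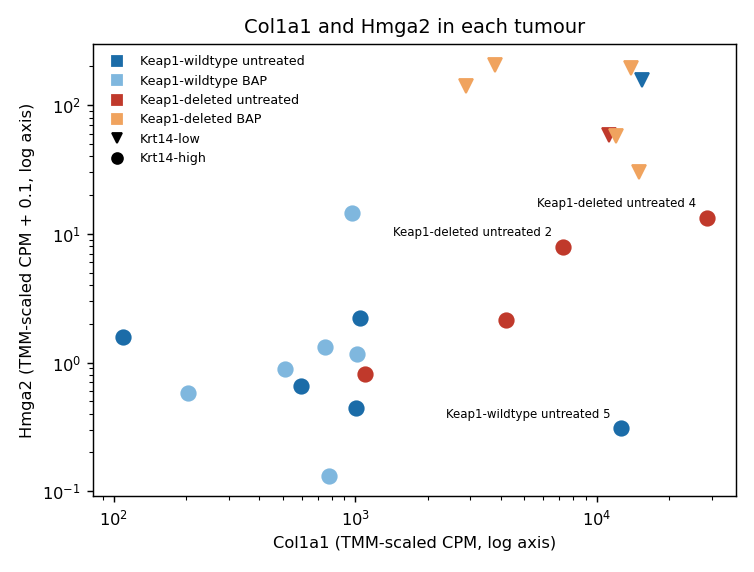
Hmga2 (TMM-scaled CPM plus 0.1, log axis) against Col1a1 (TMM-scaled CPM, log axis) in 22 tumours. The 7 low tumours (triangles) hold Hmga2 at 30.1 CPM or more over a range of Col1a1 that high tumours also reach. The labelled high tumours combine high Col1a1 with Hmga2 at or below 13.2 CPM. Hmga2 was chosen as a separated gene.

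Peg10, a paternally expressed gene of retrotransposon origin on chromosome 6 (4747306 to 4760517, plus strand), was at 18.7, 20.8 and 31.4 CPM in low and at 0, 0.115 and 2.84 CPM in high tumours. Sgce next to it (4674350 to 4747207, minus strand), an imprinted sarcoglycan gene that starts within 100 bases of Peg10 on the other strand, ranged from 43.3 to 77.6 CPM against 0.955 to 16.6 CPM. Ppp1r9a, the neurabin gene downstream of Peg10, ranged from 1.09 to 9.09 CPM against 0 to 0.992 CPM. The neighbours Casd1, Pon2, Pon3, Tfpi2 and Calcr overlapped between the states. This neighbourhood was looked at after its values had been seen, and whether the counting used strand is not given in the sources used here.

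Genes of macrophages were higher in the low tumours beside the mesenchymal genes. Of 20 macrophage and monocyte genes 2 were separated, 19 had a higher median and the median difference was 3.95; the list summed to 3441 to 9215 CPM in low and to 397 to 4944 CPM in high tumours. Csf1r, the receptor that macrophages need for survival, was at 269, 318 and 520 CPM in low and at 9.48, 26.5 and 268 CPM in high tumours, the last again in Keap1-deleted untreated 4. Folr2, a receptor of tissue-resident macrophages, was at 1.03, 4.96 and 15.3 CPM against 0, 0.0258 and 0.937 CPM. F13a1 and Siglec1, also macrophage genes, were among the 10 largest gains; F13a1 was at 53.7, 231 and 320 CPM against 0, 1.71 and 38.9 CPM. Csf1, the ligand of that receptor, ranged from 126 to 320 CPM against 7.597 to 89.2 CPM, and the monocyte chemokines Ccl2 and Ccl9 did not overlap either (chosen after their values were seen). Without Keap1-deleted untreated 4, 10 of the 20 were separated upward. The part of infiltrating cells in the mesenchymal and matrix values was not tested.

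Other cell types gave few separated genes, but several of their lists had higher medians in the low tumours, as the fibroblast list did. Neutrophil, B and plasma cell, mast cell, skeletal muscle, adipocyte and salivary gland lists held no separated gene. The median was higher for 8 of 8 mast cell genes (median difference 2.30), 16 of 16 skeletal muscle genes (2.53), 9 of 10 neutrophil genes (1.49), 13 of 14 endothelial genes (1.07) and 12 of 14 T and NK cell genes (0.85), against -0.01 over all genes. Of 14 T and NK cell genes 1 was separated, Prf1, the perforin of cytotoxic cells, at 0.555 to 16.4 CPM in low and 0 to 0.402 CPM in high tumours. Cd3e, which defines T cells, was at 0.101 to 1.39 CPM against 0 to 2.28 CPM. Pdpn, on the lymphatic endothelial list but also made by fibroblasts and tumour cells, was at 112 to 283 CPM in low against 4.36 to 109 CPM in high tumours, while Pecam1 and Cdh5 overlapped. Skeletal muscle genes summed to 20.8 to 1481 CPM in low and 11.8 to 1932 CPM in high tumours, and so varied widely within each state. Notch3 on the pericyte list and Erbb3 on the Schwann cell list, both also keratinocyte genes, were separated downward, Erbb3 not with library totals as scaling.

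**Figure D5:**
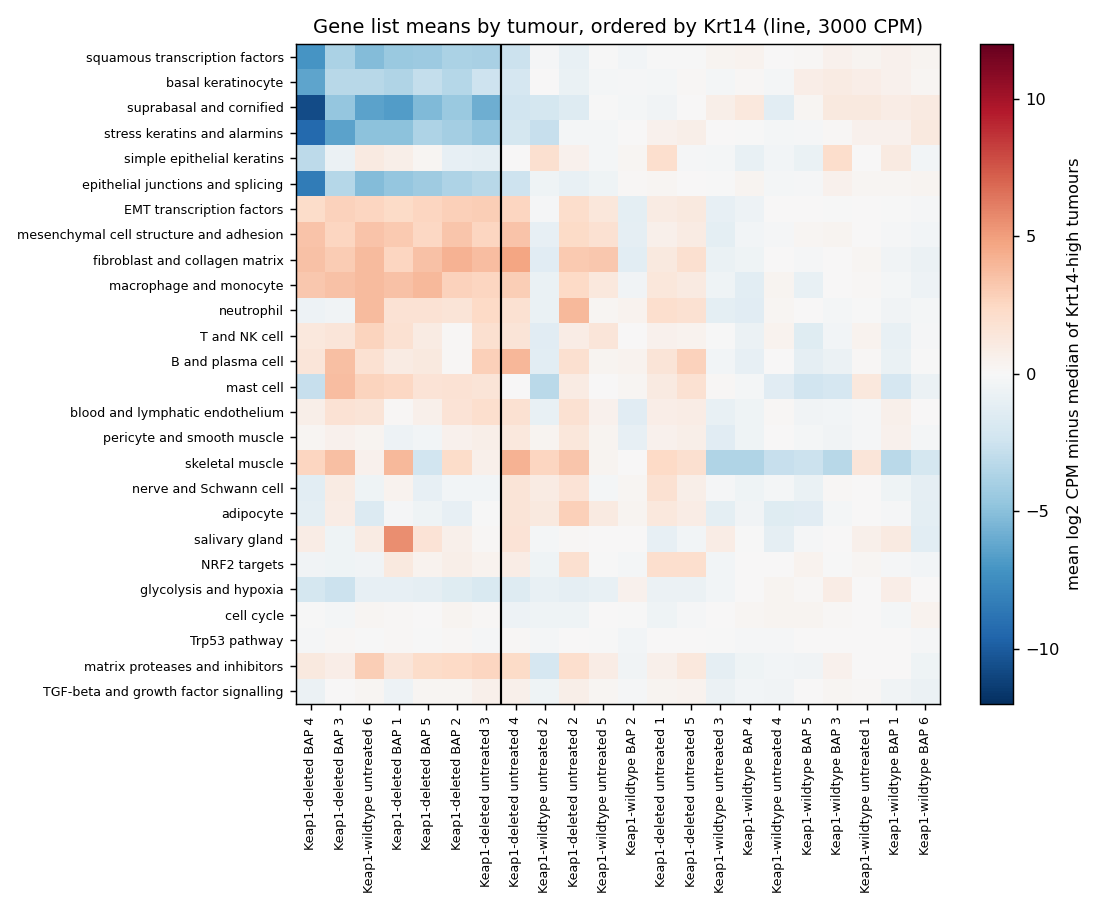
Mean log2 CPM of each of 26 gene lists (rows) in each tumour (columns, ordered by Krt14; the line marks 3000 CPM), as the difference from the median of the 15 high tumours. Squamous, keratinocyte and junction lists are lower and mesenchymal, fibroblast and macrophage lists higher left of the line, and Keap1-deleted untreated 4, just right of it, is shifted the same way in these lists, less far in the squamous ones.

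Growth signalling and proliferation lists held few separated genes. Of 21 TGF-beta and growth factor genes 2 were separated, both lower: Tgfa, a ligand of the EGF receptor, at 0.348 to 5.96 CPM in low and 6.41 to 119 CPM in high tumours (overlapping with library totals as scaling), and Fgfr2, the keratinocyte growth factor receptor, at 2.35 to 12.7 CPM against 40.5 to 175 CPM. Of 18 cell cycle genes 1 was separated, Foxm1, a mitotic transcription factor, at 42.6 to 79.9 CPM in low and 19.2 to 41.5 CPM in high tumours, while the list had a median difference of 0.11. None of 17 glycolysis and hypoxia genes was separated, but all 17 had lower medians; Egln3, a hypoxia-induced oxygen sensor, was at 20.5, 77.4 and 118 CPM against 59.1, 518 and 1254 CPM. Among 18 matrix protease and inhibitor genes none was separated; Timp1, a metalloprotease inhibitor, was at 111, 328 and 550 CPM against 4.88, 9.68 and 327 CPM and Mmp3, stromelysin, at 426, 2029 and 3828 CPM against 7.54, 65.7 and 1255 CPM.

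In the Trp53 pathway list, 1 of 11 genes was separated. Cdkn1a, the p21 inhibitor of the cell cycle, was at 18.9, 48.2 and 64.0 CPM in low and at 65.2, 273 and 383 CPM in high tumours. With library totals as scaling Cdkn1a overlapped, at up to 73.4 CPM in low tumours (Keap1-deleted BAP 3) and from 70.3 CPM in high ones (Keap1-deleted untreated 4), and the list held no separated gene. Cdkn2a, which encodes p16 and ARF, was at 408, 651 and 1045 CPM against 63.3, 137 and 525.5 CPM, with Keap1-deleted untreated 4 the only high tumour inside the low range. Trp53 itself, floxed in every tumour, was at 12.7 to 110 CPM against 6.33 to 24.9 CPM, the highest being Keap1-deleted BAP 3. Pik3ca, the mouse gene, overlapped at 68.3 to 112 CPM against 74.4 to 139 CPM.

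Because most low tumours were Keap1-deleted, levels are also given inside single label groups. Keap1-wildtype untreated 6, the only low tumour of its label, is set beside the other 5. It held 13.7 CPM of Trp63 against 332 to 447 CPM, 5518 CPM of Vim against 98.5 to 741 CPM, and 157 CPM of Hmga2 against 0.21 to 2.11 CPM. Keap1-deleted untreated 3 held 39.4 CPM of Trp63 against 54.2 to 316 CPM in the other 4 tumours of its label, 2501 CPM of Vim against 458 to 2320 CPM, and 58.1 CPM of Hmga2 against 0.71 to 13.2 CPM. The directions follow from the choice of these genes, which were separated over all tumours, so only the levels are given here.

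Keap1 genotype, a label that the grouping by Krt14 did not use, was tested with the state and BAP as covariates in edgeR's quasi-likelihood test with Benjamini-Hochberg adjustment. KEAP1 marks NRF2, encoded by Nfe2l2, for degradation, and NRF2 drives antioxidant and detoxification genes. With Keap1 deletion, 734 genes (3.82%) rose and 141 (0.734%) fell at an adjusted p under 0.05, and 4130 had an unadjusted p under 0.05. Without Keap1-deleted untreated 4 the total fell from 875 to 253. The test leans on few tumours, since 1 low tumour was Keap1-wildtype and 4 high ones Keap1-deleted. Keap1 fell by 1.12 on the log2 scale (SE 0.26, edgeR adjusted p 0.0178), and lay below all 11 high wildtype tumours in 4 of 4 high deleted tumours. Of the 6 low tumours labelled deleted, 5 lay below these 11 as well, and the library labelled Keap1-deleted BAP 2 lay above them at 65.5 CPM. Without Keap1-wildtype untreated 6 the edgeR adjusted p for Keap1 was 0.0691, and over its 31 alternatives it ran from 0.00268 to 0.0691, missing 0.05 in 2.

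The NRF2 target list was the one most called in this test, with 15 of 25 genes up and none down. This count was 14 without Keap1-deleted untreated 4, 13 without it and the library labelled Keap1-deleted BAP 2, and 14 with no term for the state. Nqo1, a quinone reductase, rose by 2.79 (SE 0.45, edgeR adjusted p 0.00264). In high tumours Nqo1 was at 185 to 461 CPM in the 4 deleted and at 30.6 to 85.7 CPM in the 11 wildtype tumours, and in low tumours at 19.4 to 403 CPM in the 6 deleted against 19.4 CPM in the wildtype one. The lowest deleted value was that of Keap1-deleted BAP 3, which matched the wildtype tumour. Gstm1, a glutathione transferase, rose by 3.32 (SE 0.42, edgeR adjusted p 0.000248), and exceeded the wildtype values of its own state in 4 of 4 high and 6 of 6 low deleted tumours.

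Slc7a11, the cystine importer, rose by 2.36 (SE 0.44, edgeR adjusted p 0.00617) with the state as covariate and by 0.81 (edgeR adjusted p 0.456) without it; over its 31 alternatives the adjusted p ran from 2.39e-05 to 0.456. Slc7a11 was at 8.62 to 81.7 CPM in low deleted and at 114 to 1148 CPM in high deleted tumours, so the states did not overlap within the deleted genotype. Between low and high tumours, whatever the genotype, none of the 25 NRF2 targets was separated, and the median difference was 0.04. Genotype is mixed into this contrast, since 6 of 7 low tumours were labelled deleted and 11 of 15 high ones wildtype. Within the deleted genotype, Gstm1, Gclc, Aldh3a1 and Hmox1 did not overlap either. They were at 80.1 to 264, 50.5 to 175, 1.21 to 382 and 66.3 to 141 CPM in low tumours. In high ones they were at 430 to 1853, 195 to 946, 471 to 2125 and 197 to 371 CPM. Nqo1, Txnrd1 and others of the list overlapped there. The share of all genes that did not overlap in this split was not counted. No high deleted tumour had BAP, so BAP and the state can hardly be told apart in it. Nfe2l2 itself was at 77.7, 89.1 and 101 CPM in low and at 84.6, 200.9 and 434 CPM in high tumours, overlapping at the low end of the high range.

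The state is set by Krt14, itself a keratinocyte gene, so a term for it takes up variation in the epithelial lists by construction, and the counts that follow do not show how Keap1 deletion bears on them. With the state as covariate none of the squamous transcription factor, basal, suprabasal or junction genes passed with Keap1 deletion, and with no such term 12 of 16, 12 of 14, 9 of 19 and 15 of 22 were called down. For fibroblast and collagen genes the count up was 5 of 20 with the term and 18 of 20 without it, and it was 1 of 20 with the term when Keap1-deleted untreated 4 was left out. For macrophage and monocyte genes it was 7, 13 and 4 of 20 in the same order. The genes with the largest rises in the test were Inmt, Prl2c5, Prl2c2, 3110039M20Rik and Ighg2c, and those with the largest falls 4631405J19Rik, Sprr2a2, Stfa2, Gm31518 and Tslp. Inmt, a methyltransferase gene, had 1 count in the 12 wildtype libraries together, and 3110039M20Rik had 0, so no fold is given for either and their rank by fold depends on the prior count. Prl2c5 and Prl2c2, Sprr2a2 and Stfa2 belong to families of near-identical copies and are uncertain. Ighg2c, an immunoglobulin constant gene, was at 6.11 to 178 CPM in high deleted and at up to 0.54 CPM in high wildtype tumours. Tslp, an epithelial cytokine, fell by 2.91 (SE 0.82, edgeR adjusted p 0.0449), a call lost in 18 of 31 alternatives, over which the adjusted p ran from 0.000538 to 0.195. Tslp was at 0.15 to 0.99 CPM in high deleted against 0.50 to 18.8 CPM in high wildtype tumours. In low tumours it was at 0.34 to 2.49 CPM in the 6 deleted ones, 3 of them above the wildtype one at 1.06 CPM. Among the other genes with the largest changes, the call was lost in 19 of 31 alternatives for Stfa2, 13 for 3110039M20Rik, 11 for 4631405J19Rik, 6 for Sprr2a2 and 5 for Gm31518.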

How the data were processed

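Total RNA of 22 primary tumours was sequenced as paired-end Illumina reads, per the labels' protocols. For each library and Ensembl gene ID the authors deposited expected counts beside effective lengths, per the file headers; the expected counts were whole numbers in all 22 files at a tolerance of 1e-09, and were used as counts. Effective length, deposited as a length in bases, was the same in all files and was not used. The sources used here name no aligner, genome build or annotation. Of 56748 IDs, 52125, holding 99.4% of counts, were matched to symbols in GENCODE M21 (GRCm38), from which positions are given.

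Low tumours had Krt14 under 3000 CPM by library total. Genes were kept by filterByExpr (minimum count 10 over the 4 label groups) and scaled by TMM in edgeR 4.0.16 (R 4.3.3); log2 CPM used a prior count of 2. Low and high tumours were compared by medians and by overlap of their ranges, with no test. Keap1 genotype was tested over all 22 libraries with edgeR's quasi-likelihood F test, with state and BAP as covariates and Benjamini-Hochberg adjustment over 19202 genes. Both procedures were run on simulated counts with independent genes, known changes and no tumours between the states. That setting is simpler than these data, and no result here rests on it. BAP within Keap1-deleted low tumours was not tested, because 1 of them was untreated. The unit of the replicates is the library, numbered within a group by order of deposition.

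Named genes were 8 chosen genes, up to 10 separated genes a direction with the largest difference of medians and a median of at least 1 CPM, up to 4 separated members of each list (or the 2 largest where none was), and up to 5 genes a direction from the Keap1 test; others were named after their values were seen, and not all that the rule selects are reported. The gene groups, lists and these rules were chosen with earlier results of these data known. Alternatives were other scalings, filters, Krt14 thresholds, call rules, subsets of labels and titles, DESeq2 1.42.0, other covariates and leaving out each library; leaving out Keap1-deleted untreated 4 and the library labelled Keap1-deleted BAP 2 together, and list counts with libraries left out, were added after the data were seen. 1 gene of the macrophage list is not reported here by name.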

Additional observations from a re-analysis of the deposited data

Results flagged for a closer look

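Of 31 groups of values examined for a sample far from the others, 8 held one. Chance flags about 1 in 20 such groups when they are independent. These are not, since lists of related genes were read in the same tumours, so 8 of 31 cannot be set against that rate. The 3 that concern Krt14 are the level that chose the low tumours, so they restate that choice and are given as a description only. The basal keratinocyte list also holds Krt14, so its flag draws partly on that level. Keap1-deleted BAP 4 stood apart below the other low tumours in the mean log2 CPM of basal keratinocyte genes, at 1.87 against 4.54 to 5.65, of suprabasal and cornified genes, at -1.39 against 2.64 to 4.97, and of epithelial junction and splicing genes, at -0.84 against 2.35 to 4.21. It also stood apart in mast cell genes, at -2.44 against 1.87 to 4.08. Krt14 in that tumour was 3.71 on the log2 CPM scale, against 8.81 to 10.44 in the other low tumours and 8.81 to 10.18 in the other Keap1-deleted BAP tumours.

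Keap1-deleted BAP 1 stood apart above the other low tumours in salivary gland genes, with a mean log2 CPM of 7.75 against 1.61 to 3.76, a list of which 2 genes were tested. Among Keap1-wildtype untreated tumours, Krt14 in tumour 6 was 9.57 on the log2 CPM scale against 13.29 to 15.17 in the other 5.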

How the results depend on the processing

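The counts of genes higher and lower in low tumours were 149 and 618, and stayed within 1.5 times of these with DESeq2 size factors, with no low-count filter and with a filter of 1 CPM in 5 libraries. Genes higher numbered 302 with library totals as scaling. With the threshold at 1500 CPM, which moves 1 tumour, 118 were higher and 245 lower, of which 36 and 142 were among the 149 and 618. At 6000 CPM 653 were higher and 1023 lower, sharing 90 and 483. Medians at least 4-fold apart gave 1995 and 1663. Fewer tumours gave more separated genes: 3861 and 3101 with titles ending in R, 336 and 1048 with the other titles, 1191 and 1460 with untreated tumours, and 3797 and 3580 with Keap1-deleted untreated tumours. Leaving out each library gave 149 to 714 higher and 593 to 1156 lower; the largest changes came without Keap1-deleted untreated 4 (714 and 1156) and, for genes higher, without Keap1-deleted untreated 3 (234). Leaving out Keap1-deleted untreated 4 and the library labelled Keap1-deleted BAP 2 together gave 758 and 1206. Genes called with Keap1 deletion numbered 875, and 1968 by the DESeq2 test (70.6% up, against 83.9%), 250 with log2 Krt14 as covariate, 6375 with no Krt14 term (50.2% up), 1675 and 252 with thresholds of 1500 and 6000 CPM, 253 to 1483 with each library left out, and 224 with both libraries above left out. They were 253 without Keap1-deleted untreated 4, 304 without Keap1-deleted untreated 2, 582 without Keap1-wildtype untreated 4 and 1483 without Keap1-wildtype untreated 6. Beyond the number of tumours or the threshold itself, the cause was not tested. Among 116 genes followed through these alternatives, 135 of 3798 differences between low and high tumours moved by more than the spread among low tumours. No separated gene changed direction. Where an alternative only left libraries out, this was nearly fixed beforehand, since a separated gene stays separated with fewer tumours. No paired analysis was possible because the labels give no replicate numbers that tumours share. The BAP test within Keap1-deleted low tumours and its alternatives were not run, since 1 of these tumours was untreated.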

Other observations

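The low tumours differed from each other in genes that 1 tumour held far above the other 21. Keap1-wildtype untreated 6 held the granulocyte growth factor gene Csf3 at 148 CPM against at most 14.7 CPM elsewhere, and Mmp9 and Acp5, genes of osteoclasts and other myeloid cells, at 2688 and 1879 CPM against at most 567 and 409 CPM. Keap1-deleted untreated 3 held the opioid precursor gene Penk at 148 CPM against at most 27.9 CPM, and the glycoprotein hormone gene Stc1 at 430 CPM against at most 82.8 CPM. Keap1-deleted BAP 1 held the salivary genes Amy1, Muc5b and Car6 at 200, 68.1 and 87.4 CPM against at most 2.95, 0.737 and 2.16 CPM. Keap1-deleted BAP 3 held Dlk1, an imprinted regulator of mesenchymal precursors, at 489 CPM against at most 7.10 CPM, and the Wnt antagonists Dkk2 and Sfrp4 at 513 and 204 CPM against at most 97.4 and 14.7 CPM. Keap1-deleted BAP 5 held the growth regulator Yap1 at 2560 CPM against at most 184 CPM, and the neddylation gene Dcun1d5 at 2662 CPM against at most 116 CPM. These genes were chosen after their values were seen.

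Fabp4, a fatty acid binding protein of adipocytes and also of other cells, was at 2.75, 21.2 and 108 CPM in low and at 33.9, 2182 and 5796 CPM in high tumours. The 4 high Keap1-deleted tumours held 41.3 to 114 CPM, which overlapped the low range. All higher levels were in Keap1-wildtype tumours, which ranged from 33.9 to 5796 CPM when Krt14-high. Plin1, which coats fat droplets of adipocytes, had a median of 0 CPM in both states. Wnt4 and Wnt3a, secreted Wnt ligands of epithelia, lay lower in every low tumour, at 1.23 to 12.9 CPM against 55.4 to 363 CPM and at 0.0536 to 0.512 CPM against 0.693 to 19.7 CPM.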
